A study of Mus musculus with 6 samples.

Results

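Genes typical of fat tissue were followed in spleen RNA of 3 garlic-fed mice and 3 control mice, as a measure of how much adjoining tissue the samples held. The set was a list of 10 genes, Adipoq, Fabp4, Plin1, Cfd, Retn, Car3, Scd1, Lpl, Cidec and Fmo2, and its rule used no threshold on signal. All probe sets named for 1 of these genes alone in the array annotation were kept, which gave 20 probe sets of 8 genes among 45037 probe sets in all. No probe set was named for Plin1 or Cfd in the annotation used, so these 2 genes were not analysed here.

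All mice were male C57BL/6J mice, 8 weeks old at the start, and were fed for 15 weeks a diet of casein, sucrose, cornstarch and soybean oil. The garlic-fed mice received 4% lyophilized raw garlic powder in this diet, and the control mice 4% cellulose in its place. Spleens were snap-frozen after sacrifice and total RNA of each was hybridized to 1 Affymetrix array. How far surrounding tissue was trimmed is not given in the sources used here. The values are MAS5 signals, the summary of a group of short oligonucleotides against 1 transcript, on a linear scale. The mean signal of each array, with 2% of values trimmed at each end, was 500, so signals can be set side by side between mice but not between probe sets. Each mouse had 1 array, and precision is limited by the few arrays.

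White fat cells store triglyceride in a single large lipid droplet and release hormones, the adipokines, into the blood. The spleen itself is built of red pulp, which filters blood, and of lymphoid white pulp, and it hangs in a fat-bearing fold of the peritoneum next to the tail of the pancreas. Some proteins of fat cells are restricted to them, while others are made by several cell types, so the genes of the list are not equally telling. Adiponectin (Adipoq) and resistin (Retn) are adipokines in the mouse, and Cidec joins lipid droplets. Fabp4 carries fatty acids in fat cells and also in macrophages and capillary endothelium, and Lpl, lipoprotein lipase, is also made by macrophages and muscle. Scd1 introduces the double bond of oleate and is expressed widely. Car3, a carbonic anhydrase, is abundant in fat cells and in slow skeletal muscle, and Fmo2 is a flavin monooxygenase known best from the lung.

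For 6 of the 10 genes the RefSeq promoter table held a sequence (GRCm38.p6). The 250 bases before the start of Adipoq, Retn and Cidec are shown because the signals of these genes shared their highest and second highest mouse and their products are the most particular to fat cells. The motifs searched on both strands were AGGTCA, the core letters bound by nuclear receptors such as PPARγ, TTGCNNCAA, a palindrome of C/EBP factors, and CCAAT, and letters of a match are in capitals.

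Adipoq (chr16:23146286-23146535, strand +): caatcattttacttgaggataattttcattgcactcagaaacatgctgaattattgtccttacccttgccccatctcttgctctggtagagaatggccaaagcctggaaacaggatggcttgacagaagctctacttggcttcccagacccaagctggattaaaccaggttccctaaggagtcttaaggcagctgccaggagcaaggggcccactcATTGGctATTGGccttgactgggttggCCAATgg

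Retn (chr8:3655520-3655769, strand +): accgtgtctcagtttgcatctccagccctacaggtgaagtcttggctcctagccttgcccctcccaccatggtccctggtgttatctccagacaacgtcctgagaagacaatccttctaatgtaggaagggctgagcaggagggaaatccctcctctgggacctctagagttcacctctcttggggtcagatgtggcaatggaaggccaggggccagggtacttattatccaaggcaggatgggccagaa

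Cidec, the farther upstream of its starts (chr6:113435761-113436010, strand -): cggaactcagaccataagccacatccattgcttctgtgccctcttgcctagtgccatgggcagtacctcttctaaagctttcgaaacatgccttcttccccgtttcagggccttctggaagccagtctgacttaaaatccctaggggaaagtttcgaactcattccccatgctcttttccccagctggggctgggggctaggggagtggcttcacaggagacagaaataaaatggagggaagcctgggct

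In Adipoq, CCAAT was matched 3 times, with the matches beginning 34, 27 and 7 bases before the start, and no motif overlapped another. Retn and Cidec held none of the motifs in this window. CCAAT occurred in 33.8% of 32851 promoters of the same length, AGGTCA in 14% and TTGCNNCAA in 1.74%. Of the 6 member genes in the table, 1 held CCAAT (Adipoq), 1 held AGGTCA (Fmo2) and none held TTGCNNCAA.

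Most fat tissue genes had high signals in garlic-fed mice 1 and 2 and a low one in garlic-fed mouse 3. Adipoq, Fabp4, Car3, Cidec and Retn were highest in garlic-fed mice 1 and 2, while garlic-fed mouse 3 lay within or below the range of the control mice. Scd1 followed this order with a smaller spread, and Lpl did not follow it. With all 6 mice no fat tissue probe set passed the adjusted threshold between the diets. In whole-tissue RNA, fewer fat cells and less RNA per fat cell cannot be told apart.

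**Figure D1:**
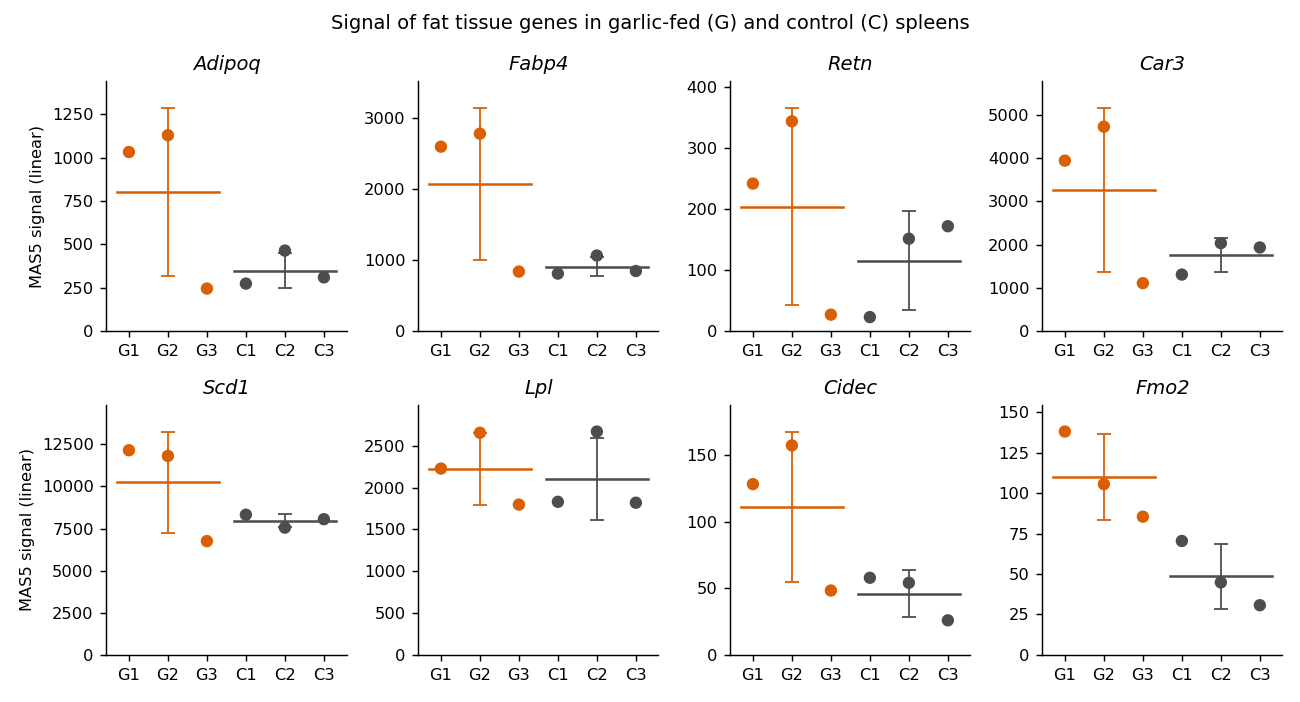
MAS5 signal (linear axis from 0) of the 8 genes in each garlic-fed mouse (G1 to G3, orange) and control mouse (C1 to C3, gray), for the probe set of each gene with the highest mean log2 signal. Lines are group means and error bars SD (n = 3 each), and Adipoq, Fabp4, Car3, Cidec and Retn are highest in G1 and G2 while G3 sits among or below the control mice.

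A floor of 23.5, the 20th percentile of all signals, was applied before taking log2, and limma was run on the 27022 probe sets whose mean log2 signal exceeded 6.08. Of the 20 fat tissue probe sets, 11 passed this filter on dim signals, representing 7 genes, and Cidec, with a mean log2 signal of 6.04, lay just under it. None of the 11 passed an adjusted p under 0.05 in either direction, against 0.237% of all probe sets tested. At an unadjusted p under 0.05, 3 of the 11 (1 each of Fabp4, Car3 and Fmo2) were higher in garlic-fed mice, against 5.58% of all probe sets tested, and none was lower, against 5.44%. In 1 of the 11, that of Fmo2, all garlic-fed mice exceeded all control mice, as in 7.52% of all probe sets tested, and in none were all garlic-fed mice lower, as in 9.29%. The Fmo2 probe set passed the filter only through the garlic-fed mice, so it is no support for a difference in these counts. Garlic-fed mice 1 and 2 gave the highest and second highest signals in 8 of the 11, an order seen in 9.32% of all probe sets tested. The Fmo2 probe set is among these 8 and is no support here either. The median log2 fold change, garlic minus control, was 0.67 over the 7 genes tested, Fmo2 included, and -0.03 over all 12262 genes tested.

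Adipoq encodes adiponectin, a hormone secreted by fat cells that raises insulin sensitivity. Its signal was 1033, 1129 and 245.9 in garlic-fed mice 1, 2 and 3, against 274.3, 464.6 and 310.2 in control mice 1, 2 and 3. Garlic-fed mouse 3 had the lowest signal of all mice and garlic-fed mouse 2 the highest, 4.59 times as high, so the groups overlapped. The means were 803 ± 485 in garlic-fed mice and 349.7 ± 101 in control mice (SD, n = 3 each), with a log2 fold change of 0.95 ± 0.49 (SE, adjusted p = 0.517).

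Retn encodes resistin, which in the mouse comes from white fat cells. Its signal was 241.7, 343.6 and 27.1 in garlic-fed mice 1, 2 and 3, against 23.1, 151.4 and 171.9 in control mice 1, 2 and 3. Retn thus had a low mouse in each group, with control mouse 1 under the floor, and its highest signal was 14.9 times its lowest. The log2 fold change was 0.63 with a standard error of 0.96 (adjusted p = 0.869), so the difference was smaller than its error. Its direction turned without control mouse 1 (-0.30) or without garlic-fed mouse 2 (-0.07).

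Cidec coats lipid droplets and drives their fusion into the single large droplet of white fat. It was dim, with signals of 128.4, 157.5 and 48.4 in garlic-fed mice 1, 2 and 3, against 58, 54.2 and 26 in control mice 1, 2 and 3. Garlic-fed mice 1 and 2 lay above all control mice, and garlic-fed mouse 3 lay between control mice 2 and 3. Cidec was left out by the filter, and without the filter its log2 fold change was 1.19 ± 0.59 (SE, adjusted p = 0.657).

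Fabp4, also known as aP2, binds fatty acids in the cytoplasm. In its probe set with the highest mean the signal was 2601, 2784 and 840.7 in garlic-fed mice 1, 2 and 3, against 812.1, 1067 and 848.4 in control mice 1, 2 and 3. The means were 2075 ± 1073 in garlic-fed mice and 909 ± 138 in control mice (SD, n = 3 each), with a log2 fold change of 1.02 ± 0.37 (SE, adjusted p = 0.346). The control mice lay close together, and garlic-fed mouse 3 lay among them. A further probe set of Fabp4 had 1288, 890.3 and 503 in garlic-fed mice 1, 2 and 3, against 758.8, 547 and 460.8 in control mice 1, 2 and 3. It showed garlic-fed mice 1 and 2 on top as well, by less, with a log2 fold change of 0.53 ± 0.30 (SE, adjusted p = 0.574). The remaining Fabp4 probe sets were too dim to be tested and reached at most 92.8 and 58.7.

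Car3 encodes a carbonic anhydrase of low catalytic activity that fat cells hold in large amounts. In its probe set with the highest mean the signal was 3944, 4728 and 1111 in garlic-fed mice 1, 2 and 3, against 1309, 2036 and 1937 in control mice 1, 2 and 3. The mice ran in the same order as in Adipoq, from garlic-fed mouse 2 at the top to garlic-fed mouse 3 at the bottom. The log2 fold change was 0.67 ± 0.44 (SE, adjusted p = 0.639). A further probe set had 815.9, 973.9 and 327.9 in garlic-fed mice 1, 2 and 3, against 217.4, 384.2 and 375.8 in control mice 1, 2 and 3. It gave the same top of the order, garlic-fed mouse 2 and then mouse 1, and a log2 fold change of 1.02 ± 0.37 (SE, adjusted p = 0.342). The Car3 probe sets under the filter stayed at or below 85.2 in every mouse and had log2 fold changes of -0.12 and -0.15.

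Fmo2, which oxidizes compounds with soft nucleophilic sulfur or nitrogen, kept another order in its tested probe set. That probe set had 138, 105.5 and 85.4 in garlic-fed mice 1, 2 and 3, against 70.4, 44.8 and 30.7 in control mice 1, 2 and 3. All garlic-fed mice lay above all control mice, mouse 3 included, with a log2 fold change of 1.23 ± 0.38 (SE, adjusted p = 0.252). This probe set passed the filter only through the garlic-fed mice, since the mean of the control mice lay under it, so its separation and its low unadjusted p are no support for a difference. With the floor at the 40th percentile the log2 fold change was 0.55 (adjusted p = 0.417). Of the Fmo2 probe sets under the filter, the one with 118.3, 85.4 and 19.9 in garlic-fed mice 1, 2 and 3, against 25.3, 31.3 and 4.1 in control mice 1, 2 and 3, had garlic-fed mouse 3 below control mice 1 and 2. Another had 132.6, 72.3 and 13.5 in garlic-fed mice 1, 2 and 3, against 49.2, 33.3 and 29.5 in control mice 1, 2 and 3, with garlic-fed mouse 3 lowest of all. The remaining Fmo2 probe sets had log2 fold changes of 0.19, with control mouse 1 highest (87.9), and 0.13, with garlic-fed mouse 3 highest (32.2). The Fmo2 probe sets thus disagree on the order of the mice, garlic-fed mouse 3 included. All of them were dim, with no signal above 138.

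Scd1 encodes the stearoyl-CoA desaturase that makes monounsaturated fatty acids. In its probe set with the highest mean the signal was 12148, 11810 and 6755 in garlic-fed mice 1, 2 and 3, against 8322, 7555 and 8056 in control mice 1, 2 and 3. Garlic-fed mice 1 and 2 were again highest and garlic-fed mouse 3 lowest, but the highest signal was only 1.798 times the lowest. The log2 fold change was 0.31 ± 0.19 (SE, adjusted p = 0.601). The further Scd1 probe set ranged from 944.3 to 1192 in garlic-fed mice and from 901.1 to 1055 in control mice, with a log2 fold change of 0.09 ± 0.12 (SE, adjusted p = 0.856), or of -0.0074 without garlic-fed mouse 1.

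Lpl encodes the lipase that frees fatty acids from circulating lipoproteins. In its probe set with the highest mean the signal was 2227, 2655 and 1796 in garlic-fed mice 1, 2 and 3, against 1830, 2669 and 1819 in control mice 1, 2 and 3. The highest mouse was control mouse 2, and the groups lay on top of each other, with a log2 fold change of 0.09 ± 0.18 (SE, adjusted p = 0.907). This small difference turned its sign without garlic-fed mouse 2 (-0.050), control mouse 1 (-0.0034) or control mouse 3 (-0.0077). The further Lpl probe set had 565.5, 649.5 and 509.8 in garlic-fed mice 1, 2 and 3, against 635.9, 776.6 and 548.2 in control mice 1, 2 and 3. It was the only tested fat tissue probe set with a negative log2 fold change, -0.18 (standard error 0.16, adjusted p = 0.752).

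**Figure D2:**
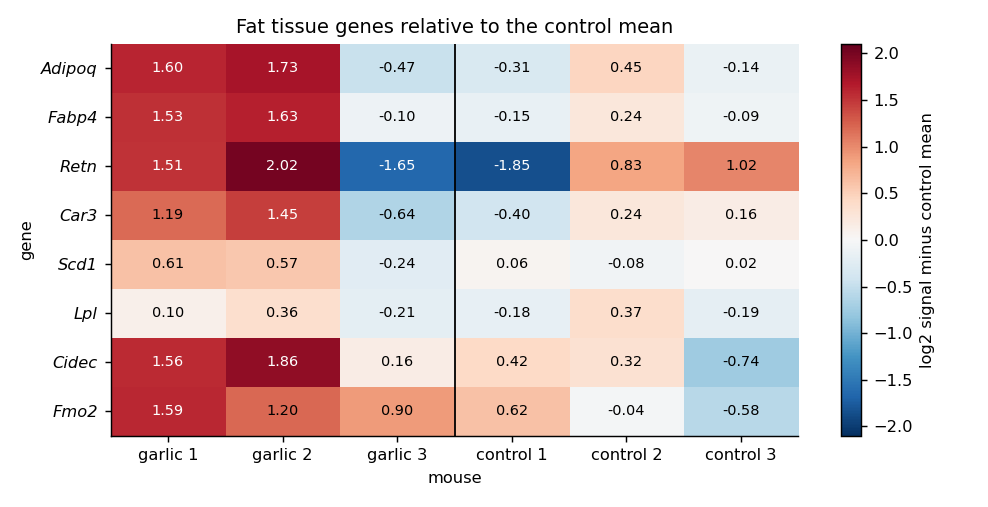
Log2 signal of each fat tissue gene in each mouse relative to the average of the 3 control mice on that scale, with garlic-fed mice left of the line and control mice right of it. Garlic-fed mice 1 and 2 are above the control mean in all 8 genes, between 0.10 (Lpl) and 2.02 (Retn), while garlic-fed mouse 3 is below it in all but Cidec (0.16) and Fmo2 (0.90).

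Set against the mean of the control mice on the log2 scale, Adipoq stood at 1.60, 1.73 and -0.47 in garlic-fed mice 1, 2 and 3. Fabp4 stood at 1.53, 1.63 and -0.10, and Car3 at 1.19, 1.45 and -0.64 in the same mice. The control mice themselves spread from -0.31 to 0.45 in Adipoq, from -0.15 to 0.24 in Fabp4 and from -0.40 to 0.24 in Car3. Control mouse 2 was the highest control mouse in all 3 of these genes.

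How far the genes moved together was described by the Pearson correlation of each with the mean centred log2 signal of the other tested fat tissue genes over the 6 arrays. It was 0.99 for Adipoq, 0.98 for Car3, 0.97 for Fabp4 and 0.90 for Scd1. It was lower for Retn (0.73), Lpl (0.71) and Fmo2 (0.42). The 6 points share the arrays and their scaling, and no p is given.

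Among 740 tested genes with an SD of log2 signal of at least 0.5, the 10 genes outside the list most like the mean of the fat tissue genes were Retnla, Plin4, Fos, Gpc3, Golt1b, Thrsp, Igfbp6, Parvb, Lrrn4 and H1f4, with correlations of 0.92 to 0.86 over the 6 arrays. Plin4, which coats lipid droplets of white fat cells, had 213.5, 249.7 and 83.5 in garlic-fed mice 1, 2 and 3, against 96.6, 113.9 and 163.2 in control mice 1, 2 and 3. Thrsp, a lipogenic protein of fat and liver, had 484, 404.6 and 185.7 in garlic-fed mice 1, 2 and 3, against 107.3, 211.4 and 268.4 in control mice 1, 2 and 3. Retnla, a secreted relative of resistin made in white fat and by macrophages, had 232.3, 208.9 and 61.9 in garlic-fed mice 1, 2 and 3, against 104.7, 125.9 and 76 in control mice 1, 2 and 3. In all 3 genes garlic-fed mice 1 and 2 were highest, and in Plin4 and Retnla garlic-fed mouse 3 was lowest. The genes were picked for likeness to the fat tissue genes, so a shared order follows from the choice. None of the 10 genes passed the adjusted threshold, with adjusted p between 0.146 and 0.916.

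Leaving out garlic-fed mouse 3 changed the calls. Without it, 5 of the 11 fat tissue probe sets then tested, with Cidec in place of Fmo2, were higher at an adjusted p under 0.05, against 0.237% of all probe sets tested, and the median log2 fold change over the genes tested was 1.58. These 5 were Fabp4 (log2 fold change 1.58, standard error 0.13, adjusted p = 0.0113), Adipoq (1.66, standard error 0.21, adjusted p = 0.0215), Scd1 (0.59, standard error 0.07, adjusted p = 0.0215) and both tested probe sets of Car3 (1.32, adjusted p = 0.0217, and 1.499, adjusted p = 0.0447). Cidec did not pass (1.71, standard error 0.43, adjusted p = 0.134), nor did Retn (1.76, standard error 0.71, adjusted p = 0.320). Without garlic-fed mouse 1 the median was 0.30 and without garlic-fed mouse 2 it was 0.23, and none passed in either case. Garlic-fed mouse 3 was the lowest garlic-fed mouse in all 5 of the probe sets called, so leaving it out raises the garlic-fed means. The calls without it are thus no support for a difference. Nothing in the labels sets garlic-fed mouse 3 apart from the others, so the values of all 6 mice stand as the result.

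**Figure D3:**
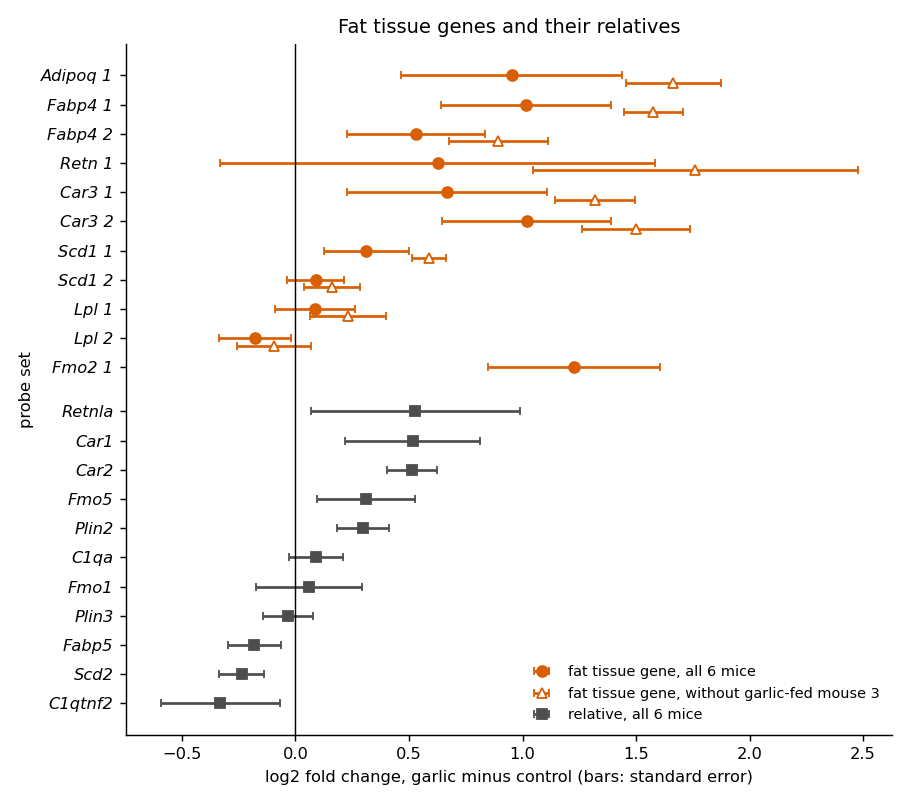
Log2 fold change, garlic minus control, with its standard error for the tested probe sets of fat tissue genes (orange circles, all mice; open triangles, without garlic-fed mouse 3) and for their tested relatives (gray squares); numbers after a gene name count its probe sets from the highest mean signal. The orange circles of Adipoq, Fabp4 and Car3 lie between 0.53 and 1.02 with wide bars, the triangles between 0.89 and 1.66, and the relatives between -0.33 and 0.53; Fmo2 was under the filter on dim signals without garlic-fed mouse 3 and has no triangle.

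The closest relatives of these genes mostly serve other cells, and Retnla was the only tested relative that was highest in garlic-fed mice 1 and 2. Of 17 relatives listed, 15 had a probe set and 11 were tested, none passed the adjusted threshold, and their median log2 fold change was 0.09. Fabp5, the fatty acid binding protein of skin and macrophages, had 4048, 5125 and 5653 in garlic-fed mice 1, 2 and 3, against 5315, 5558 and 5783 in control mice 1, 2 and 3 (log2 fold change -0.18, adjusted p = 0.634). Scd2, a desaturase related to Scd1, had 2998, 2629 and 2525 in garlic-fed mice 1, 2 and 3, against 3343, 3284 and 2967 in control mice 1, 2 and 3 (log2 fold change -0.24, adjusted p = 0.413). Both relatives thus had lower means in the garlic-fed mice, where Fabp4 and Scd1 had higher ones. Car2, a carbonic anhydrase of red blood cells, was 19726 to 23125 in garlic-fed mice and 12594 to 16988 in control mice (log2 fold change 0.51, adjusted p = 0.110), and was highest in garlic-fed mouse 3, where the Car3 probe set with the highest mean was lowest. Car1, also of red blood cells, stood at a log2 fold change of 0.52 (adjusted p = 0.580), and it too was highest in garlic-fed mouse 3. Plin2, which coats lipid droplets in most cells, was at 0.30 (adjusted p = 0.374), and Plin3 at -0.03 (adjusted p = 0.947). Fmo5 was at 0.31 (adjusted p = 0.661), Fmo1 at 0.06 (adjusted p = 0.954), C1qa at 0.09 (adjusted p = 0.849), C1qtnf2 at -0.33 (adjusted p = 0.707) and Retnla at 0.53 (adjusted p = 0.743). Cideb, Fabp3, Klkb1 and Lipg were too dim to be tested, and Lipc and Retnlg had no probe set named.

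Other genes of fat storage were counted from lists. Of 10 tested genes of lipid droplets and lipolysis, 1 passed the adjusted threshold, as higher in garlic-fed mice, and 9 did not. Of all probe sets tested, 0.237% passed it in either direction. The median log2 fold change was 0.48, against -0.03 over all genes tested. The gene that rose was Mgll, the lipase of monoglycerides in fat cells and many others, with 1890, 1645 and 1703 in garlic-fed mice 1, 2 and 3, against 1009, 1156 and 972.6 in control mice 1, 2 and 3 (log2 fold change 0.74, standard error 0.11, adjusted p = 0.0360). Garlic-fed mouse 3 lay between the other garlic-fed mice in Mgll, unlike in Adipoq. The Mgll call did not hold without garlic-fed mouse 1 (adjusted p = 0.0624) or mouse 2 (0.0603), or without control mouse 1 (0.175), mouse 2 (0.107) or mouse 3 (0.0944), with log2 fold changes of 0.68 to 0.82. Abhd5, G0s2 and Dgat2, which act on triglyceride in many tissues, also lay higher in every garlic-fed mouse than in any control mouse, with log2 fold changes of 0.60, 0.52 and 0.56 and adjusted p of 0.169, 0.226 and 0.211. Counting Mgll, 4 of the 10 tested genes were separated upward, against 7.52% of all probe sets tested. Abhd5, G0s2 and Dgat2 were picked out once their values were known, and the gene list itself was drawn up with earlier results known. Lipe, the hormone-sensitive lipase of fat cells, stood at a log2 fold change of -0.31 (adjusted p = 0.582), Pnpla2, the first lipase of triglyceride breakdown, at 0.09 (adjusted p = 0.835), and Pck1, which feeds glycerol synthesis, at 1.397 (adjusted p = 0.426). Pck1 passed the filter only through the garlic-fed mice, so its change, which enters the median of 0.48, is no support for a difference.

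None of the 10 tested genes of fatty acid synthesis passed (median 0.07), with 6 log2 fold changes above 0 and 4 below. Thrsp was at 0.86 (adjusted p = 0.470), Me1, which makes NADPH for lipid synthesis, at 0.74 (adjusted p = 0.296), Elovl5 at 0.20 (adjusted p = 0.414), Acly at -0.07 (adjusted p = 0.796) and Acacb at -0.91 (adjusted p = 0.582). Acacb passed the filter only through the control mice, so its change is no support for a difference. In Me1 and Elovl5, 2 of the 10, all garlic-fed mice exceeded all control mice, against 7.52% of all probe sets tested. Both were higher at an unadjusted p under 0.05, against 5.58% of all probe sets tested. None of the 7 tested regulators of fat cells passed (median 0.22). Pparg, the master regulator of fat cell formation, had 447.4, 324.5 and 455.7 in garlic-fed mice 1, 2 and 3, against 216.5, 333.1 and 231.7 in control mice 1, 2 and 3 (log2 fold change 0.66, adjusted p = 0.260), so it was high in garlic-fed mouse 3, where Adipoq and Fabp4 were low. Zfp423, a regulator of fat cell precursors, was lower in every garlic-fed mouse than in any control mouse (log2 fold change -1.11, adjusted p = 0.331). Zfp423 cleared the filter through the control mice alone, because the garlic-fed mean fell under it. Such a downward separation is thus no support for a difference here, and 9.29% of all probe sets tested shared it. None of 9 tested genes of the fat cell surface and of uptake passed (median 0.10). Their largest change was Mrap at 0.55 (adjusted p = 0.453), highest in garlic-fed mouse 3, and Cd36 was at 0.10. None of 6 tested partners of lipoprotein lipase passed (median 0.03), from Lmf1 at -0.20 to Apoc2 at 0.20. Gpihbp1, which anchors the lipase to capillaries, was at 0.01. Of 6 tested genes of other secreted products, none passed (median 0.26), with Adig at 0.50 and Lcn2 at 0.46 the largest. Adig passed the filter only through the garlic-fed mice. Leptin (Lep) was under the floor in all mice but garlic-fed mouse 2, where it was 64.5. None of the 6 tested genes of fat cell precursors and fibroblasts passed (median -0.06), with Col1a1 at 0.22 and Cd34 at -0.21.

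Of 8 brown fat genes with a probe set, 2 were bright enough to be tested, and neither passed. Prdm16, a regulator of brown fat that other cells also express, had 102.3, 178 and 124.3 in garlic-fed mice 1, 2 and 3, against 124.9, 128.6 and 155.5 in control mice 1, 2 and 3 (log2 fold change -0.05, adjusted p = 0.968). Ppargc1a, a coactivator of mitochondrial genes in many tissues, had a log2 fold change of 0.43 with overlapping groups (adjusted p = 0.719). Ppargc1a passed the filter only through the garlic-fed mice, so its change is no support for a difference. The signal of Ucp1, the uncoupling protein that defines brown fat, was 4.2 to 5.7 in garlic-fed mice and 3.9 to 6.2 in control mice, under the floor in every mouse. Cox8b was under the floor in every mouse as well, and the summed signal of the markers Ucp1, Cox8b, Cidea and Elovl3 was 54.6 to 93 in garlic-fed mice and 73.6 to 105 in control mice.

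Markers of other tissues around the spleen varied between the mice too, each list in its own order. The summed signal of the fat cell markers Adipoq, Fabp4, Retn, Cidec and Lep was 4012, 4479 and 1184 in garlic-fed mice 1, 2 and 3, against 1181, 1753 and 1365 in control mice 1, 2 and 3. For 12 pancreatic genes the sum was 2152, 37206 and 2414 in garlic-fed mice 1, 2 and 3, against 147554, 19225 and 69009 in control mice 1, 2 and 3. Garlic-fed mouse 1 was thus high in fat cell markers and had the lowest pancreatic signal of all mice, while garlic-fed mouse 2 was highest in fat cell markers and lay between the control mice in pancreatic signal. Liver genes summed to 663, 10637 and 1635 in garlic-fed mice 1, 2 and 3, against 2669, 1088 and 8248 in control mice 1, 2 and 3, with garlic-fed mouse 2 and control mouse 3 highest.

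The mesothelium, the cell sheet that covers spleen and peritoneal fat, also had its highest summed signals in garlic-fed mice 1 and 2. Its 9 genes summed to 1366, 1536 and 1116 in garlic-fed mice 1, 2 and 3, against 969, 1047 and 841 in control mice 1, 2 and 3, and no garlic-fed mouse overlapped a control mouse. Upk3b, a uroplakin made by mesothelium, had 233.7, 205.7 and 137.8 in garlic-fed mice 1, 2 and 3, against 46.5, 111.6 and 65.6 in control mice 1, 2 and 3 (log2 fold change 1.43, adjusted p = 0.147). None of the 7 tested genes passed, with a median of 0.61 and with 5 log2 fold changes above 0 and 2 below. Among them, Upk1b and Lrrn4 passed the filter only through the garlic-fed mice, so this median and count are no support for a difference. Wt1, which mesothelium also expresses, was at 0.14 (adjusted p = 0.822). The genes below 0 were Gpm6a at -0.07 (adjusted p = 0.936) and Krt18 at -0.17 (adjusted p = 0.899). Skeletal muscle, which also expresses Car3, had its genes in another order, with Ckm at or below 86.3 and a summed signal of 969 to 1413 in garlic-fed mice and 1231 to 1583 in control mice. Lymphocyte genes of the spleen summed to 29945 to 33473 in garlic-fed mice and 30816 to 34692 in control mice. The ratio of the Gapdh signal at the 3′ end to that at the 5′ end, which moves with RNA integrity, was 0.978, 0.999 and 0.769 in garlic-fed mice 1, 2 and 3, against 0.881, 0.821 and 0.801 in control mice 1, 2 and 3, so that it was highest in garlic-fed mice 1 and 2. The same ratio for β-actin was 1.23, 1.24 and 1.18 in garlic-fed mice 1, 2 and 3, against 1.23, 1.22 and 1.20 in control mice 1, 2 and 3, and there control mouse 1 lay above garlic-fed mouse 1. The part of pancreatic, liver or mesothelial tissue and of RNA integrity in the signals of the fat tissue genes was not tested.

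**Figure D4:**
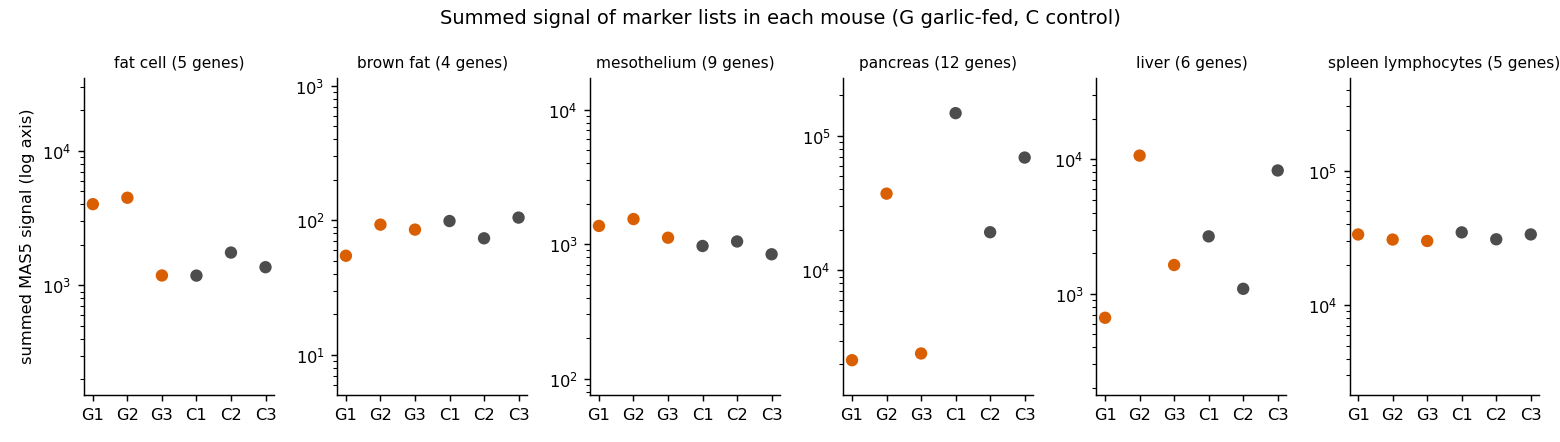
Summed MAS5 signal (log axis, spanning the same number of decades in every panel) of marker genes in each garlic-fed mouse (G1 to G3, orange) and control mouse (C1 to C3, gray). Fat cell markers are highest in G1 and G2 (4012 and 4479), pancreatic genes in C1 (147554), liver genes in G2 and C3, and the lymphocyte genes of the spleen stay between 29945 and 34692.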

How the data were processed

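Total RNA of 6 spleens was labeled with biotin and hybridized to Affymetrix mouse arrays. The deposited values are intensity values, MAS5 signals made by the authors, whose version and scaling target are not given in the sources used here. After 64 control probe sets were left out, 45037 remained, of which 34945 carried 1 gene name in the platform annotation, 932 several and 9160 none. A floor of 23.5 (20th percentile) was set, and the 27022 probe sets whose mean log2 signal exceeded 6.08 (40th percentile) were fitted with limma 3.58.1 in R 4.3.3 (lmFit, eBayes with trend = TRUE), garlic minus control, with Benjamini-Hochberg adjustment over all of them. The methods' one-way ANOVA was an alternative. Where a gene had more than 1 probe set, that with the highest mean log2 signal stood for it. Of 160 genes on 16 lists, 15 had no probe set named. The list and its companions were chosen with earlier results of these data known.

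Named by rule were all probe sets of the list, all relatives, up to 4 genes of each further fat-related list by the largest change and the highest mean signal, and the 10 genes most like the list. Abhd5, Dgat2, G0s2, Lipe, Pnpla2, Pck1, Me1, Klf15, Lep and Ckm were chosen after their values were seen. The alternatives were other floors, filters, scalings and tests, each mouse left out in turn, a replicate block, and, chosen after seeing the data, the mouse with the most pancreatic or liver signal in each group left out and the same alternatives for Mgll. The fit was tested on simulated data. The labels call the mice biological replicates. Promoters came from RefSeq (GRCm38.p6). Plots were made in Python 3.11.15 (matplotlib 3.10.9).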

Additional observations from a re-analysis of the deposited data

How the results depend on the processing

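No fat tissue probe set passed the adjusted threshold under any alternative but one, and 5 passed without garlic-fed mouse 3, so that the count ran from 0 to 5 when single mice were left out. The median log2 fold change over the genes (0.67 with all mice) ran from 0.23 to 1.58 when single mice were left out. Without the most pancreatic mouse of each group (garlic-fed mouse 2 and control mouse 1) it was 0.15, and without the most liver-rich one (garlic-fed mouse 2 and control mouse 3) 0.45. Both choices were made after seeing the data. The direction turned only for small differences and for Retn. The Lpl probe set with the highest mean ran from -0.050 (without garlic-fed mouse 2) to 0.27 with single mice left out, and was at -0.14 without the most pancreatic mice and at -0.14 without the most liver-rich ones. Retn ran from -0.30 (without control mouse 1) to 1.76 and was at -0.07 without garlic-fed mouse 2 and at -0.995 without the most pancreatic mice. The further Scd1 probe set ran from -0.0074 (without garlic-fed mouse 1) to 0.16. Over all probe sets, 61 were higher and 3 lower. Higher calls numbered 147 with median centring (4 lower), 4 without a filter, 270 with a replicate block, 0 to 103 with single mice left out, 8 without the most pancreatic mice and 25 without the most liver-rich ones. Lower calls numbered 6 with the floor at the 40th percentile, 7 without a filter, 25 with a replicate block, 0 to 33 with single mice left out, 28 without the most pancreatic mice and 25 without the most liver-rich ones. Without a trend of variance, and with the methods' ANOVA on log2 or linear signals, 0 were higher and 0 lower, while an unadjusted p under 0.05 gave 1338, 1201 and 1135 higher and 1474, 1347 and 1379 lower ones. Without control mouse 1, 0 were called (unadjusted, 1089 higher and 842 lower), and without control mouse 2 also 0 (unadjusted, 1259 higher and 1013 lower). Mgll lost its call without a filter (adjusted p = 0.229), without the trend (0.265) and with ANOVA (0.369 and 0.356). The cause of these shifts was not tested. The replicate block left the median at 0.67 and no fat tissue probe set called. The deviations of same-numbered mice had correlations of 0.00064, -0.18 and 0.08. With so few mice these cannot settle whether the numbers pair the mice. Signals near background limit Cidec, Fmo2, Retn and Lep.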

Other observations

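Beyond lipid storage, 3 regulators of fat cell gene expression and stress responses had larger means in garlic-fed mice, and none had a call. Of the 7 tested regulators of fat cells, 5 had log2 fold changes above 0 and 2 below, with a median of 0.22. The 2 below were Zfp423 at -1.11 and Rxrg at -0.28. Cebpb stood at a log2 fold change of 0.66 (adjusted p = 0.230) and Cebpd one of 0.61 (adjusted p = 0.206), both transcription factors that act early in fat cell formation and in inflammation. Klf15, which acts late in fat cell formation and in glucocorticoid responses, was too dim to be tested, with 71.9, 146.5 and 72.8 in garlic-fed mice 1, 2 and 3, against 29.1, 10.9 and 32.3 in control mice 1, 2 and 3. In Klf15 all garlic-fed mice exceeded all control mice, mouse 3 included, a separation seen upward in 7.52% of all probe sets tested. Control mouse 2 was under the floor and Klf15 was chosen after its values were seen, so its separation is no support for a difference.

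Of the genes most like the fat tissue genes, Fos, an immediate early transcription factor, had 816.5, 1125 and 511.2 in garlic-fed mice 1, 2 and 3, against 415.9, 627.9 and 400.9 in control mice 1, 2 and 3 (log2 fold change 0.72, adjusted p = 0.357). Parvb, a protein of cell-matrix adhesions, had 770.8, 903.4 and 548.1 in garlic-fed mice 1, 2 and 3, against 368.5, 475.1 and 430.9 in control mice 1, 2 and 3 (log2 fold change 0.78, adjusted p = 0.146), with the groups not overlapping. Upk1b, a uroplakin of mesothelium, had 167.2, 205.3 and 128.1 in garlic-fed mice 1, 2 and 3, against 45.5, 120.7 and 40.2 in control mice 1, 2 and 3 (log2 fold change 1.44, adjusted p = 0.215), and its groups did not overlap either. Upk1b passed the filter only through the garlic-fed mice, since the mean of the control mice lay under it. Its separation is thus no support for a difference. Such separation of the groups was seen upward in 7.52% of all probe sets tested.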
